A study of Mus musculus with 8 samples.

Results

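Na+ leaves a kidney tubule cell through the sodium pump, acid leaves through sodium-proton exchangers, and bicarbonate crosses the membrane through carriers of the Slc4 family. A set of 7 genes of these machines was followed in mouse kidneys: Atp1b1 and Fxyd2 of the pump, Slc9a3 and Slc9a8 of the proton exchangers, and Slc4a4, Slc4a2 and Slc4a1 of the bicarbonate carriers. They were taken by symbol from the 46517 genes counted, and all 7 were among the 15382 with enough reads to be tested. By mRNA sequencing, with 1 library per mouse, whole kidneys of a cKO group of 4 (KO16, KO18, KO19, KO20) were set against those of a Control group of 4 (C10, C11, C13, C14). The cKO mice were Xpr1lox/lox with the Pax8-rtTA and LC1 transgenes, so that doxycycline switches on Cre recombinase in cells with Pax8 promoter activity, which lie along the nephron, and deletes the floxed exon of Xpr1, a phosphate exporter. Control mice were Xpr1lox/lox littermates without those transgenes. All 8 mice drank doxycycline at 2 mg/ml over 2 weeks, beginning when they were 8 weeks old. Effects of Cre and rtTA cannot be told apart from those of Xpr1 loss. Deletion was induced in the nephron, while whole kidney RNA also holds cells outside it.

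The pump, built of a catalytic alpha and a glycosylated beta subunit, sits in the basolateral membrane and keeps cell Na+ low, and the inward Na+ gradient it makes drives most transport by tubule cells. In the proximal tubule, protons leave into the lumen in exchange for Na+ and titrate filtered bicarbonate, and the bicarbonate formed inside the cell leaves on the blood side together with Na+. In the collecting duct, type A intercalated cells secrete protons with an ATPase and hand bicarbonate to the blood in exchange for chloride.

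Promoter windows are shown for the genes of the proximal bicarbonate route, Slc9a3, Slc9a8 and Slc4a4, whose values in cKO libraries lay mostly below those in Control libraries. Each window, from RefSeq on GRCm38.p6, runs 5′ to 3′ on the plus strand, which is the coding strand of these 3 genes, from 250 bases before to 50 after a transcription start. Capitals mark the GC box GGGCGG or the CCAAT box, each searched on both strands, so that the minus-strand matches read CCGCCC and ATTGG.
Slc9a3, chr13:74121163-74121462: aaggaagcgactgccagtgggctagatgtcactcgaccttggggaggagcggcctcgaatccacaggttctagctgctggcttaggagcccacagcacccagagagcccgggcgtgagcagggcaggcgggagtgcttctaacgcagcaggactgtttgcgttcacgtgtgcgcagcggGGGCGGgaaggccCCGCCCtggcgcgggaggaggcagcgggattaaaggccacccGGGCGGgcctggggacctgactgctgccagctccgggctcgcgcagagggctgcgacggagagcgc
Slc9a8, chr2:167421460-167421759: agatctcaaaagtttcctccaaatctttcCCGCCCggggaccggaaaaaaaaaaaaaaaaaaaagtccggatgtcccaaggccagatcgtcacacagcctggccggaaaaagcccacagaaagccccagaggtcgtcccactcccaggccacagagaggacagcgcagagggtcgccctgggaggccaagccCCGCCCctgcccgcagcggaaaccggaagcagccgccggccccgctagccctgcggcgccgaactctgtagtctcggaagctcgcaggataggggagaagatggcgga
Slc4a4, first start, chr5:88887010-88887309: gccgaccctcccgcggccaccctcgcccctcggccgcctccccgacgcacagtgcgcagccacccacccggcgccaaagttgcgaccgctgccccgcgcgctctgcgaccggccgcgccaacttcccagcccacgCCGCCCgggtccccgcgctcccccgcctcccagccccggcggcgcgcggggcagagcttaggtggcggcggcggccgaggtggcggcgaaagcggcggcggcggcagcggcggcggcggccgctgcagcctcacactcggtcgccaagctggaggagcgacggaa
Slc4a4, second start, chr5:89027716-89028015: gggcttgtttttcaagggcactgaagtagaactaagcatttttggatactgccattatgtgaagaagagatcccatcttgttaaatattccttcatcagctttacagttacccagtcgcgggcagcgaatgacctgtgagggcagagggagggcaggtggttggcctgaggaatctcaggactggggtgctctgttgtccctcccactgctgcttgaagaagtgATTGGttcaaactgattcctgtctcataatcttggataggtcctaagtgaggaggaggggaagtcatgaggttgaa

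The Slc9a3 window held 3 GC boxes, the first beginning 71 bases before the start. The Slc9a8 window held 2, both on the minus strand. The starts of Slc4a4 differed in composition: the first window was 80% G and C with 1 GC box, and the second was 48.3% G and C with no GC box and 1 CCAAT box. Of 32851 mouse promoter windows of the same length, 35.7% held a GC box and 37.4% a CCAAT box, so these letters are common. In the 7 windows found for 5 of the 7 genes (Atp1b1, Slc9a3, Slc9a8, Slc4a4 and Slc4a2), no match was found on either strand to TATAAA (in 13.6% of all windows), the HNF4 core CAAAGTCCA (0.475%), the palindromic HNF1 motif (0.00913%) or the glucocorticoid receptor half-site AGAACA (18.97%). Fxyd2 and Slc4a1 had no entry in the promoter table. Counts are summed over a gene, so transcripts from the starts of Slc4a4 were not separated.

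Several properties of the libraries touch these genes. Reads assigned to genes ran from 20366113 to 26155030 per library. Xpr1 averaged 16.6 ± 9.43 CPM (counts scaled to library size with TMM factors) in cKO kidneys and 104 ± 19.02 CPM in Control kidneys (SD, n = 4 each), and the groups did not overlap, although most of the gene lies outside the floxed exon. Libraries KO16 and KO20 leaned to short transcripts and C11 to long ones. Against the Control mean, the median gene of the shortest sixth by transcript length (up to 1472 bp) deviated by 1.21 on the log2 scale in KO16, 0.57 in KO20 and -0.46 in C11. The median gene of the longest sixth (from 5322 bp) deviated by -1.08 in KO16, -0.49 in KO20 and 0.42 in C11. KO18 and KO19 leaned to long transcripts too, at -0.32 and -0.17 in the shortest sixth and 0.43 and 0.28 in the longest. C10 leaned to short ones, at 0.31 in the shortest and -0.33 in the longest. Without KO16, KO20 and C11, long-leaning cKO libraries are thus set against Control libraries that include C10. A length lean between the groups remains in that fit. KO16 and KO20 were also the libraries with the least Xpr1, at 5.74 and 12.0 CPM against 26.5 and 22.0 CPM in KO18 and KO19, and its longest coding transcript of 7492 bp lies in the longest sixth. Fits with and without KO16, KO20 and C11, and fits that take the length lean into account, are therefore given beside the results. Among markers of other cells, 1 of 6 for principal cells was higher and 1 lower in cKO, and none passed of 4 for the distal convoluted tubule, 4 for endothelium and 3 for podocytes.

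With all 8 libraries, none of the 7 genes passed an adjusted p of 0.05 in edgeR's quasi-likelihood test, where 14.1% of all tested genes did, 6.61% lower and 7.50% higher in cKO. At an unadjusted p under 0.05 there were 3 of the 7 (Slc9a8, Slc4a4 and Slc4a1), against 27.0% of all genes, and DESeq2 and limma-voom each called 1, Slc4a4, where they called 20.7% and 13.6% of all genes. The log2 fold change of cKO over Control was negative for 5 genes and positive for Fxyd2 and Slc4a2, with a median of -0.999 over the 7 and 0.01 over all tested genes. The groups did not overlap for 1 gene, Slc4a4, where this held for 22.8% of all tested genes. Less RNA per cell and fewer cells of a type cannot be told apart in RNA of a whole kidney.

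**Figure D1:**
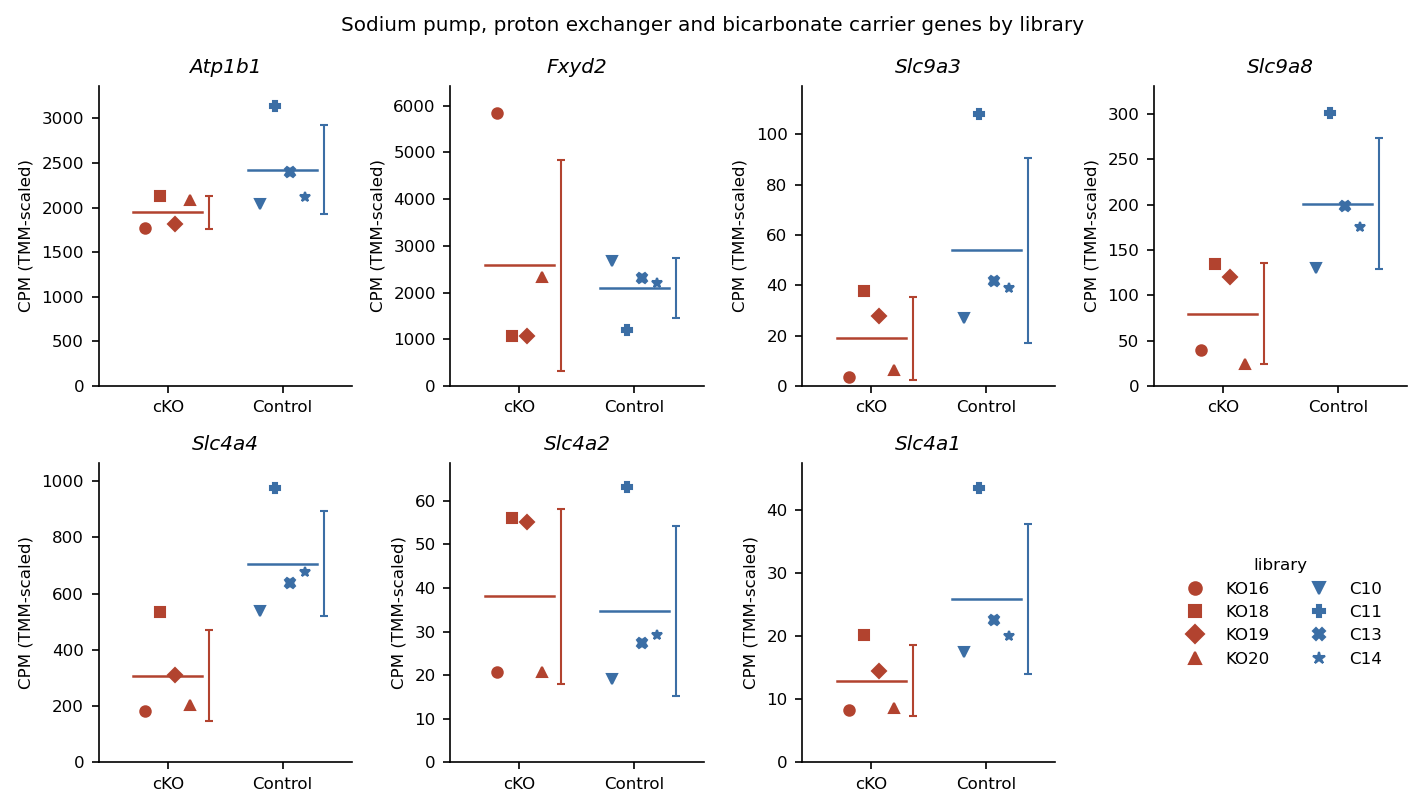
CPM (TMM-scaled) of the 7 genes in each library, cKO in red on the left and Control in blue on the right of each panel, with 1 symbol per library, the mean as a line and ± SD as a bar (n = 4 each). Slc4a4 alone has no cKO library above a Control library, from 534 CPM in KO18 to 539 CPM in C10, and Fxyd2 reaches 5842 CPM in KO16.

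Atp1b1 encodes the beta subunit of the pump, which brings the alpha subunit to the membrane. The gene (ENSMUSG00000026576) lies on the minus strand of chromosome 1, chr1:164437109-164458355 in GRCm38. It held 1767, 2127, 1813 and 2085 CPM in KO16, KO18, KO19 and KO20, against 2046, 3135, 2401 and 2121 CPM in C10, C11, C13 and C14. The cKO libraries were close together and the groups overlapped, with C11 alone far above the rest. The means were 1948 ± 184 CPM in cKO and 2426 ± 497 CPM in Control kidneys, which gave a log2 fold change of -0.32 with an SE of 0.23 (adjusted p = 0.419). Its exons overlap those of Nme7 on the opposite strand, which had 4049 reads over all 8 libraries against 33253 or more for Atp1b1 in each one, and the strand setting of the counting is not given in the sources used here. With library totals alone, which put the median of all genes at 0.34, its log2 fold change was 0.01 (adjusted p = 0.993), still below that median.

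Fxyd2, the gamma subunit, is a small membrane protein that tunes the affinity of the pump for its ions. The gene (ENSMUSG00000059412) lies on the plus strand, chr9:45399669-45410278, and its longest coding transcript is 684 bp, the shortest of the 7 genes. It held 5842, 1075, 1078 and 2335 CPM in KO16, KO18, KO19 and KO20, against 2679.7, 1189, 2310.4 and 2209.8 CPM in C10, C11, C13 and C14. Within cKO the values spread over a wide range, with the short-leaning KO16 and KO20 at the top, and C11 was the lowest of Control. The means were 2583 ± 2253 CPM in cKO and 2097 ± 638 CPM in Control kidneys, which gave a log2 fold change of 0.30 with an SE of 0.55 (adjusted p = 0.785).

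The sign of the Fxyd2 difference was not the same in all fits. Set against the median gene of its own length sixth, Fxyd2 deviated by 0.33, -0.58, -0.73 and -0.35 on the log2 scale in KO16, KO18, KO19 and KO20. Without KO16 its log2 fold change was -0.49 (adjusted p = 0.458), and the further loss of KO20 gave -0.97 ± 0.33 (SE; adjusted p = 0.0912). Leaving out KO16, KO20 and C11 gave -1.19 ± 0.12 (SE; adjusted p = 4.06e-05), in a fit that called 57.8% of all genes. That fit sets the long-leaning KO18 and KO19 against Control libraries that include the short-leaning C10. Removal of each library's length trend gave 0.35 (adjusted p = 0.725) with the union of exons as the length, and -0.33 (adjusted p = 0.310) with the longest coding transcript, so the sign hung on how length was defined. The length slope as a covariate gave -0.45 (adjusted p = 0.0342) and -0.42 (adjusted p = 0.0400) with these lengths.

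**Figure D2:**
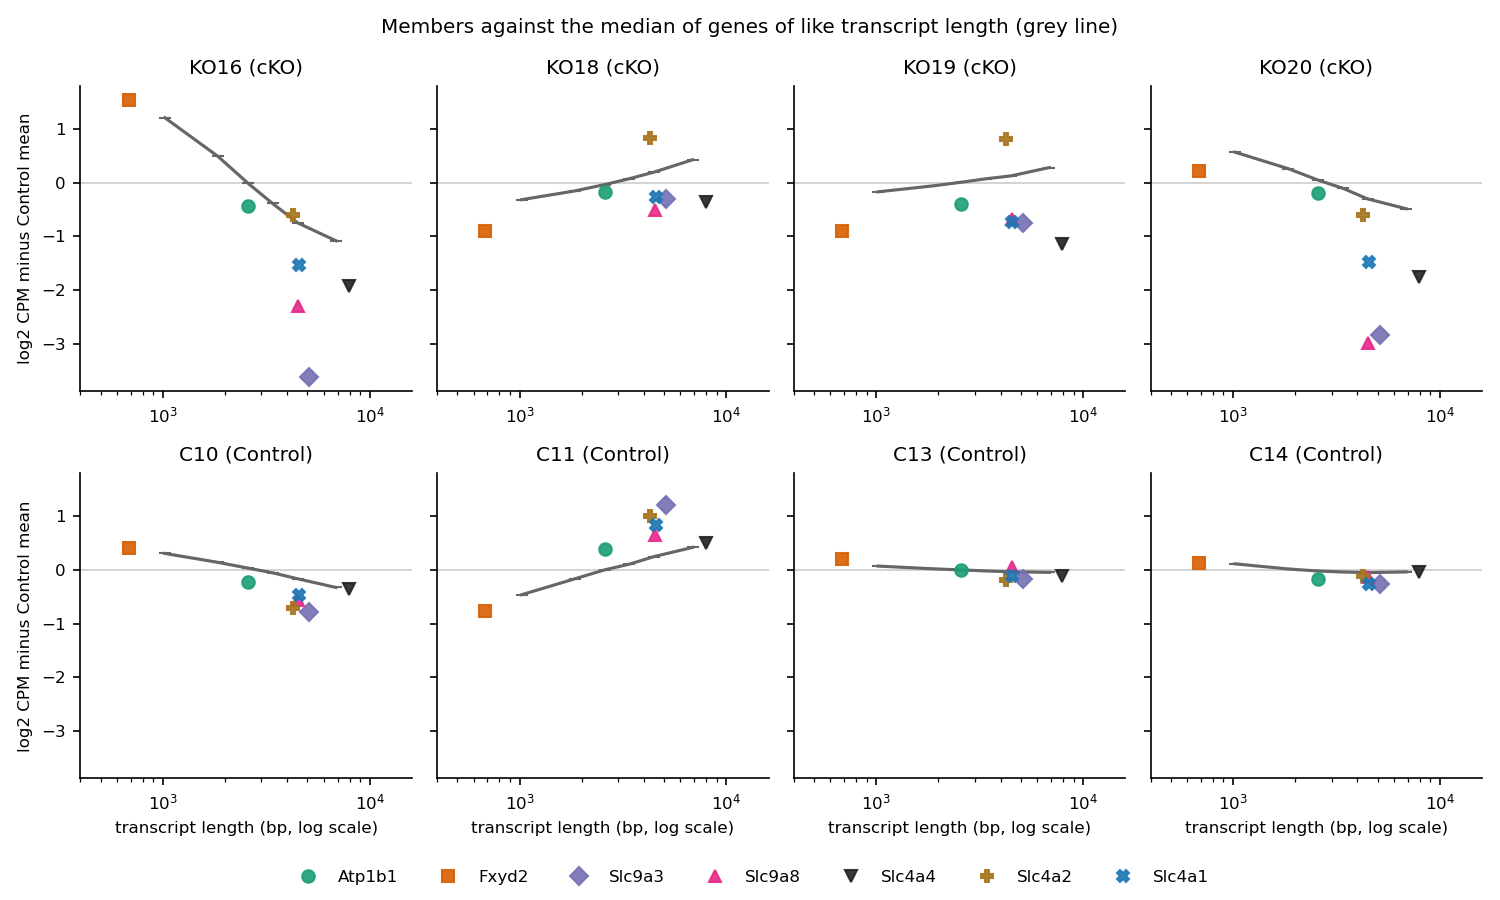
Each panel is 1 library, cKO in the upper row and Control in the lower. Points are the 7 genes by the length of their longest coding transcript (bp, log scale) and their log2 CPM minus the Control mean, and the grey line joins the medians of the sixths of all tested genes by length. The line slopes down in KO16, from 1.21 to -1.08, and up in C11, from -0.46 to 0.42. Atp1b1, Slc9a3, Slc9a8 and Slc4a1 lie below the line in all 4 cKO panels. Slc4a4, at 7931 bp, lies past the end of the line at 6874 bp, and below the median of its sixth in all 4 cKO panels. Slc9a3 and Slc4a1 also lie below the line in C10, C13 and C14, and Atp1b1 and Slc9a8 in C10 and C14. Slc4a4 is narrowly below the median of its sixth in C10 and C13.

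Slc9a3 (NHE3) is the main sodium-proton exchanger of the luminal membrane of the proximal tubule. The gene (ENSMUSG00000036123) lies on the plus strand, chr13:74121457-74169442. It held 3.72, 37.9, 27.7 and 6.496 CPM in KO16, KO18, KO19 and KO20, from 70, 1184, 913 and 154 reads, against 27.1, 108, 41.5 and 38.9 CPM in C10, C11, C13 and C14. KO16 and KO20 lay far below every Control library, while KO18 and KO19 exceeded C10, so the groups overlapped. The means were 18.9 ± 16.5 CPM in cKO and 53.9 ± 36.7 CPM in Control kidneys, which gave a log2 fold change of -1.51 with an SE of 0.73 (adjusted p = 0.224).

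The size of the Slc9a3 difference rested on KO16, KO20 and C11. The log2 fold change was -0.72 ± 0.56 (SE; adjusted p = 0.423) without KO16 and KO20, and -0.17 ± 0.19 (SE; adjusted p = 0.469) when C11 was left out too. Relative to the median gene of like length it deviated by -2.87, -0.50, -0.88 and -2.53 in KO16, KO18, KO19 and KO20, against -0.62 to 0.96 in Control libraries. Slc9a3 fell with the length slope as a covariate, at -1.28 ± 0.14 (SE; adjusted p = 0.000286), while removal of the length trend gave -1.50 ± 0.52 (SE; adjusted p = 0.0659). Unless the union of exons is named, length here and below is that of the longest coding transcript.

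Slc9a8 (NHE8) is a second sodium-proton exchanger, found in the luminal membrane of proximal tubule cells and inside cells. The gene (ENSMUSG00000039463) lies on the plus strand, chr2:167421712-167477000. It held 39.2, 135, 120.4 and 24.3 CPM in KO16, KO18, KO19 and KO20, against 130.0, 301, 199 and 175 CPM in C10, C11, C13 and C14. A single pair crossed, KO18 above C10, and KO16 and KO20 were again the lowest. The means were 79.6 ± 55.9 CPM in cKO and 201 ± 72.6 CPM in Control kidneys, which gave a log2 fold change of -1.34 with an SE of 0.54 (adjusted p = 0.144).

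Slc9a8 passed the threshold in both fits that take length into account, at -1.29 (adjusted p = 0.0377) with the trend removed and -1.16 (adjusted p = 0.0151) with the slope as a covariate. Those fits called 11.4% and 16.7% of all genes as lower in cKO. Its log2 fold change was -0.66 ± 0.33 (SE; adjusted p = 0.216) without KO16 and KO20, and -0.44 ± 0.16 (SE; adjusted p = 0.0440) when C11 was left out too, in the fit that called 28.2% of all genes as lower. The sign stayed negative throughout and the size depended on KO16, KO20 and C11.

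Slc4a4 (NBCe1) carries Na+ and bicarbonate together, and in the proximal tubule it is the basolateral way out for reabsorbed bicarbonate. The gene (ENSMUSG00000060961) lies on the plus strand, chr5:88886818-89239653. It held 183, 534, 311 and 205 CPM in KO16, KO18, KO19 and KO20, against 539, 974, 638 and 676 CPM in C10, C11, C13 and C14. Every cKO library lay below every Control library, with KO18 and C10 nearly touching. The means were 308 ± 161 CPM in cKO and 707 ± 187 CPM in Control kidneys, which gave a log2 fold change of -1.20 ± 0.37 (SE), and the adjusted p of 0.0633 missed the threshold.

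Slc4a4 was the gene nearest to a call, and it lay below genes of its length in all 4 cKO libraries. Its deviation from the median gene of like length was -0.83, -0.79, -1.43 and -1.27 in KO16, KO18, KO19 and KO20, while the Control libraries lay between -0.07 and 0.08. Slc4a4 fell in both fits that use length, at a log2 fold change of -1.06 with an SE of 0.19 (adjusted p = 0.00311) after removal of the trend and -1.03 ± 0.17 (SE; adjusted p = 0.00204) with the slope. It also fell in DESeq2 (-1.20, adjusted p = 0.00909), in limma-voom (-1.30, adjusted p = 0.0405) and in edgeR without KO18 (-1.61, adjusted p = 0.0134), where 13.6% of all genes passed. Leaving out KO16 and KO20 gave -0.75 ± 0.32 (SE; adjusted p = 0.159), and leaving out C11 too gave -0.59 ± 0.20 (SE; adjusted p = 0.0310).

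Markers of the proximal tubule, where Slc9a3, Slc9a8 and Slc4a4 are known to act, were mostly lower in cKO. The summed level of 8 proximal tubule markers ran from 1584 to 3047 CPM in cKO and from 6941 to 13766 CPM in Control libraries. In edgeR's test with all libraries, 6 of the 8 were lower in cKO, where 6.61% of all genes were, and none was higher. Cubn (log2 fold change -1.76, adjusted p = 0.0609) and Aqp1 (-0.21, adjusted p = 0.582) were not called. The summed level of 6 thick ascending limb markers ran from 3977 to 6020 CPM in cKO and from 4387 to 5988 CPM in Control libraries, with none of the 6 called. In the fits that take length into account, Egf of the limb markers was lower in cKO, as was Cldn10 with the slope. The part of these cell types in the values of Slc9a3, Slc9a8 and Slc4a4 was not tested.

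Slc4a2 (AE2) exchanges chloride for bicarbonate across the basolateral membrane of many epithelia. The gene (ENSMUSG00000028962) lies on the plus strand, chr5:24423837-24440950. It held 20.8, 55.9, 55.1 and 20.8 CPM in KO16, KO18, KO19 and KO20, against 19.2, 63.1, 27.5 and 29.2 CPM in C10, C11, C13 and C14. The groups overlapped, with the short-leaning libraries low and C11 the highest of all 8. The means were 38.1 ± 20.1 CPM in cKO and 34.7 ± 19.4 CPM in Control kidneys, which gave a log2 fold change of 0.14 with an SE of 0.47 (adjusted p = 0.889).

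Slc4a2 did not lie on one side of genes of its length, deviating from them by 0.15, 0.63, 0.68 and -0.29 in KO16, KO18, KO19 and KO20. The log2 fold change was 0.67 ± 0.44 (SE; adjusted p = 0.345) without KO16 and KO20. When C11 was left out too, Slc4a2 rose, with 1.09 ± 0.16 (SE; adjusted p = 0.000348), in the fit that called 29.5% of all genes as higher. The cKO libraries of that fit, KO18 and KO19, lean to long transcripts. Leaving out C10, KO18 or KO19 turned the small difference to between -0.11 and -0.08, with adjusted p from 0.897 to 0.943. Exons of Slc4a2 overlap those of Fastk on the opposite strand, which had 16447 reads over the 8 libraries. Slc4a2 itself had from 391 reads in KO16 to 1817 reads in KO19. The count of Slc4a2 may therefore depend on whether strand was used in counting.

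Slc4a1 (AE1, band 3) is the chloride-bicarbonate exchanger of red cells, and a shorter form serves the basolateral membrane of type A intercalated cells. Counts per gene do not separate the forms. The gene (ENSMUSG00000006574) lies on the minus strand, chr11:102348824-102366203. It held 8.34, 20.2, 14.5 and 8.69 CPM in KO16, KO18, KO19 and KO20, against 17.5, 43.4, 22.5 and 20.1 CPM in C10, C11, C13 and C14. The groups overlapped because KO18 exceeded C10 and, narrowly, C14. The means were 12.9 ± 5.61 CPM in cKO and 25.9 ± 11.9 CPM in Control kidneys, which gave a log2 fold change of -0.999 with an SE of 0.39 (adjusted p = 0.132).

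With the longest coding transcript as the length, Slc4a1 fell, at a log2 fold change of -0.86 with an SE of 0.24 (adjusted p = 0.0287) after removal of the trend and -0.76 ± 0.20 (SE; adjusted p = 0.0180) with the slope as a covariate. With the union of exons as the length, the adjusted p was 0.0559 after removal of the trend, which missed the threshold, and 0.0207 with the slope. The value was -0.58 ± 0.40 (SE; adjusted p = 0.371) without KO16 and KO20, and -0.25 ± 0.17 (SE; adjusted p = 0.225) when C11 was left out too. The summed level of 5 type A intercalated cell markers ran from 167 to 307 CPM in cKO and from 144 to 173 CPM in Control libraries, with none of the 5 called. The summed level of 11 erythroid genes, most of it globin, was 708, 104, 115 and 219 CPM in KO16, KO18, KO19 and KO20, against 231, 193, 286 and 301 CPM in C10, C11, C13 and C14. Of the 11, Rhag had no read in any library and 6 had enough reads to be tested, 1 of which, Epb42, was higher in cKO. Without KO16 and KO20, the 4 globin genes and Alas2 were lower in cKO and Epb42 higher, in a fit that called 16.6% of all genes. The median log2 fold change of the 6 was -1.18 in that fit, against -0.10 with all libraries. Hba-a1 and Hba-a2 were also lower in each fit that takes length into account, while Hbb-bs and Alas2 were called in none of these. Among these fits, Hbb-bt was lower only with the slope on the union of exons. The globin transcripts lie in the shortest sixth by length and Slc4a1 in the fifth, whose medians in KO16 were 1.21 and -0.75. In KO18 and KO19, the cKO libraries left without KO16 and KO20, the median of the shortest sixth was -0.32 and -0.17. The part of either cell type in the Slc4a1 values was not tested.

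**Figure D3:**
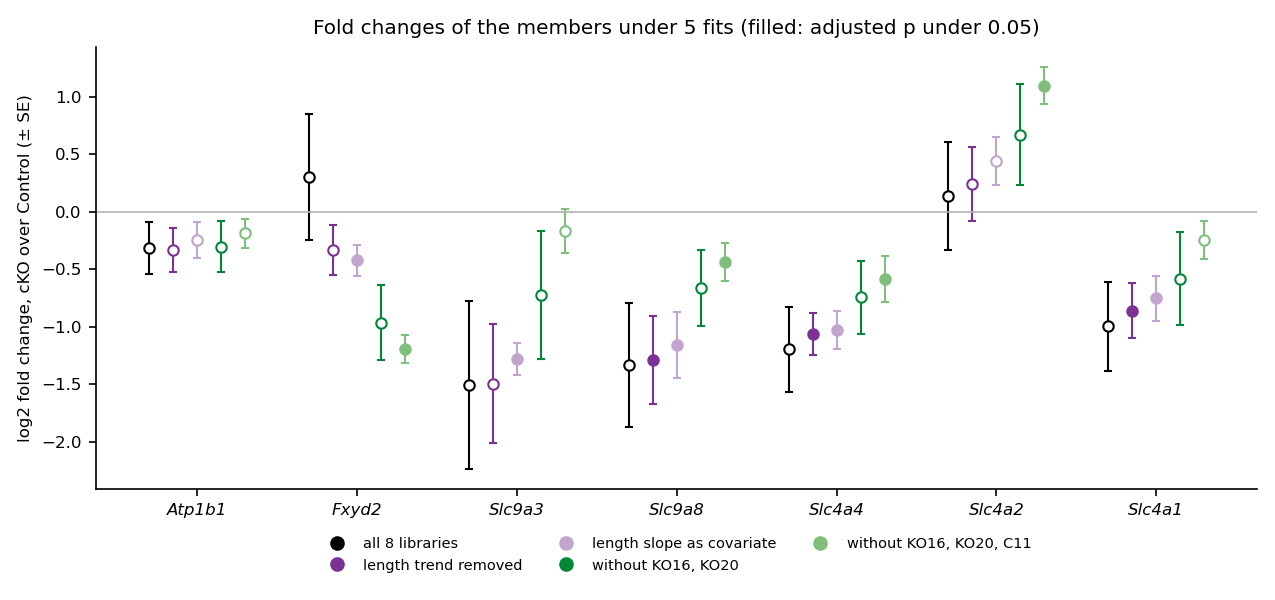
Log2 fold change of cKO over Control (± SE) of each gene in 5 fits by edgeR's quasi-likelihood test, filled where the adjusted p is under 0.05. Slc9a3, Slc9a8, Slc4a4 and Slc4a1 are negative in all 5 fits, Fxyd2 is 0.30 with all libraries and negative in the others, and Slc4a2 is positive in all 5.

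Across all alternatives tried, Slc9a3, Slc9a8, Slc4a4 and Slc4a1 had a negative log2 fold change in 21 of 21, Atp1b1 in 20 and Fxyd2 in 7, and Slc4a2 had a positive one in 18. The alternatives share libraries and are not independent. Of the 7 genes, 3 were called lower with the length trend removed, where 11.4% of all genes were, and 5 with the length slope as a covariate, where 16.7% were. Taking the union of exons as the length instead, 2 were lower with the trend removed, where 9.64% of all genes were, and 5 with the slope, where 16.7% were. None was called on leaving out KO16 and KO20, against 16.6% of all genes, and without C11 as well 4 were called, 3 lower and 1 higher, against 57.8%.

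Levels were compared between genes as CPM per kb of the longest coding transcript. Fxyd2 was the most abundant at 3776 ± 3293 CPM per kb in cKO and 3066 ± 933 CPM per kb in Control kidneys. Atp1b1 came next at 755 ± 71.4 and 940 ± 193 CPM per kb in cKO and Control. Slc4a4 held 38.9 ± 20.3 and 89.1 ± 23.6 CPM per kb, and Slc9a8 17.6 ± 12.4 and 44.5 ± 16.1 CPM per kb, in the same order of groups. The remaining genes were lower: Slc4a2 at 8.94 ± 4.70 CPM per kb in cKO and 8.14 ± 4.55 in Control, Slc9a3 at 3.70 ± 3.23 and 10.5 ± 7.18, and Slc4a1 at 2.84 ± 1.23 and 5.69 ± 2.62. The pump genes stood far above the carriers in both groups, with Fxyd2 above Atp1b1 in every library. In cKO kidneys the ranges of neighbours overlapped from Slc4a4 down through Slc9a8, Slc4a2, Slc9a3 and Slc4a1. In Control kidneys Slc4a4 lay above Slc9a8 and Slc9a8 above the rest without overlap, while Slc9a3, Slc4a2 and Slc4a1 overlapped. These levels carry the length lean of the libraries.

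Ratios of genes within a library barely depend on how libraries are scaled. Of the 21 pairs among the 7 genes, 5 had ratios whose groups did not overlap, close to the 25.0% of all pairs of tested genes, and 4 of those 5 were among the 6 pairs with Slc4a2. The log2 ratio of Slc4a2 over Slc4a4 was -3.13, -3.25, -2.49 and -3.30 in KO16, KO18, KO19 and KO20, against -4.81, -3.95, -4.53 and -4.53 in C10, C11, C13 and C14. The cKO libraries thus held more Slc4a2 per Slc4a4 in every case, in KO16 and KO20 as in KO18 and KO19, and the mean difference was 1.41. That difference was 1.58 without KO16 and KO20, and 1.75 when C11 was left out too.

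The log2 ratio of Slc4a2 over Slc4a1 was 1.31, 1.46, 1.92 and 1.25 in KO16, KO18, KO19 and KO20, against 0.14, 0.54, 0.29 and 0.54 in C10, C11, C13 and C14. These transcripts are of like length (4264 and 4545 bp), and the groups lay apart by more than their spread, with a mean difference of 1.11. Ratios of Slc4a2 over Slc9a3 and over Slc9a8 differed by 1.99 and 1.73. Slc4a4 over Atp1b1 was the remaining pair, at -3.27, -1.99, -2.54 and -3.35 in KO16, KO18, KO19 and KO20 and -1.92, -1.69, -1.91 and -1.65 in C10, C11, C13 and C14. There the difference was -0.997 with all libraries and -0.48 without KO16 and KO20, more than 1.5 times smaller. A ratio shows unequal change and not which gene changed. The overlap of Slc4a2 with Fastk may affect every ratio with Slc4a2.

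**Figure D4:**
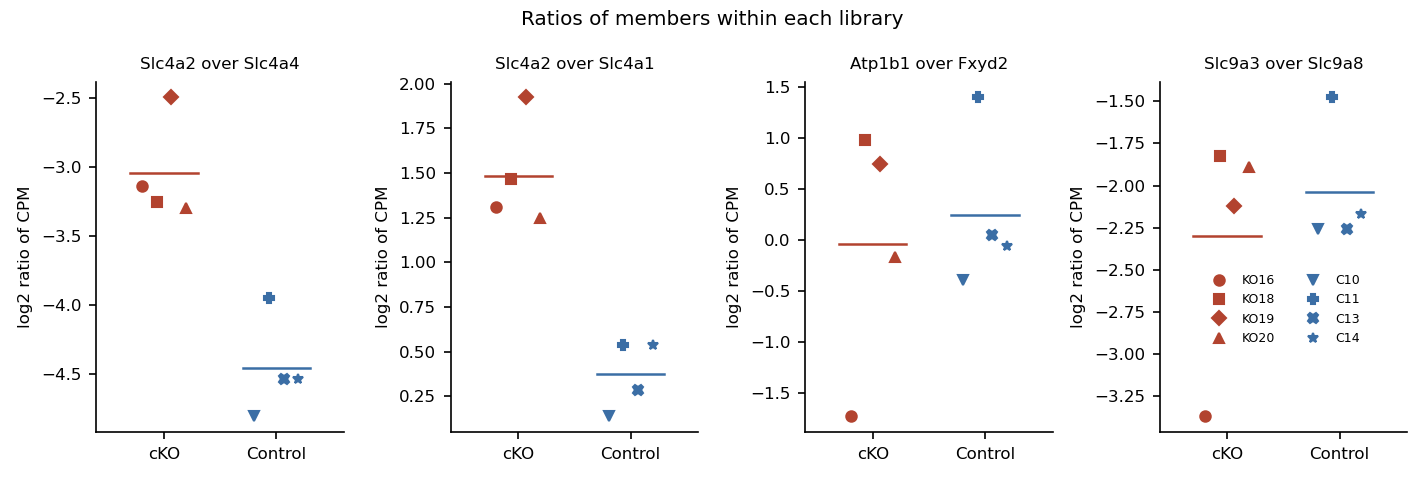
Log2 ratio of CPM of 4 pairs of genes within each library, cKO in red on the left and Control in blue on the right of each panel, with the mean as a line (n = 4 each). For Slc4a2 over Slc4a4 and over Slc4a1 the groups lie apart, by 1.41 and 1.11 between means, and for Atp1b1 over Fxyd2 and Slc9a3 over Slc9a8 they overlap.

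The wider machinery was read from 6 lists of genes, in which 8 of 76 tested genes passed the threshold, 3 higher and 5 lower in cKO. That is 10.5%, not above the 14.1% of all tested genes. In the list of sodium pump subunits and FXYD proteins, 2 of 11 tested genes were higher, where 7.50% of all genes were, none was lower, and the median log2 fold change was 0.70. Without KO16 and KO20 none was called and the median was 0.21, and without C11 as well it was 0.09. Fxyd1, phospholemman, a pump regulator best known from heart and muscle, rose by 1.66 on the log2 scale (10.8 ± 6.31 CPM in cKO, 3.40 ± 0.597 CPM in Control, adjusted p = 0.0313). Fxyd5, dysadherin, rose by 1.33 (23.1 ± 12.7 CPM in cKO, 9.22 ± 0.556 CPM in Control, adjusted p = 0.0417). Both were highest in KO16 and KO20, at 17.4 and 14.9 CPM for Fxyd1 and 39.7 and 26.3 CPM for Fxyd5. The calls of Fxyd1 and Fxyd5 held in each fit that takes length into account, with either length. They also held without KO16, KO20 and C11, where 29.5% of all genes were higher. Both missed the threshold without KO16 and KO20 (0.66, adjusted p = 0.0822 for Fxyd1, and 0.52, adjusted p = 0.0745 for Fxyd5) and on leaving out any 1 library other than KO18 or KO19, with adjusted p from 0.0556 to 0.100 for Fxyd1 and from 0.0538 to 0.118 for Fxyd5. The summed level of 6 leukocyte markers ran from 99.2 to 115 CPM in cKO and from 53.2 to 89.1 CPM in Control libraries, with Cd68 and Adgre1 higher in cKO, and their part in the rise of Fxyd1 and Fxyd5 was not tested. Fxyd2 had the highest mean CPM of this list over the 8 libraries.

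Among sodium-proton exchangers and their regulators, 1 of 13 tested genes passed, where 14.1% of all genes did, and the median log2 fold change was -0.13. Slc9a9 (NHE9), an exchanger of endosomes, rose by 1.13 on the log2 scale with an SE of 0.22 (adjusted p = 0.0108). It held 3.03, 2.82, 2.88 and 3.25 CPM in KO16, KO18, KO19 and KO20, against 1.302, 1.64, 1.17 and 1.33 CPM in C10, C11, C13 and C14. The cKO values lay close together and the groups lay well apart, although the adjusted p was 0.0538 without C13 and 0.0506 without C14. Slc9a3r1 (NHERF1), the scaffold that holds NHE3 at the luminal membrane, had the highest mean CPM of this list over the 8 libraries and a log2 fold change of -0.13 (adjusted p = 0.795), positive by up to 0.17 with upper-quartile factors, with library totals alone, or without C11 or KO20.

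In the Slc4 family none of 9 tested genes passed, where 14.1% of all genes did, and the median log2 fold change was -0.01. The median was 0.43 without KO16 and KO20 and 0.74 without C11 as well. Slc4a11, named after its values were seen, was higher in cKO in those fits and in both length treatments with either length. Without KO16 and KO20, 16.6% of all genes were called in either direction, and without C11 as well 29.5% were called higher. The length treatments called from 1474 to 2571 of 15339 genes as higher. With all libraries it averaged 19.9 ± 5.68 CPM in cKO and 11.1 ± 3.53 CPM in Control kidneys (log2 fold change 0.84, adjusted p = 0.104). Slc4a4 had the highest mean CPM of the family over the 8 libraries. The Slc4 list includes Slc4a9, which is also counted among the 3 type B intercalated cell markers, none of which was called.

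Among partners of acid-base transport, 3 of 11 tested genes were lower, where 6.61% of all genes were, and none higher, with a median log2 fold change of -0.54. The median was -0.24 without KO16 and KO20 and -0.20 without C11 as well. Car14, a membrane-bound carbonic anhydrase, fell by 3.07 on the log2 scale (adjusted p = 0.000755). It held 13.2, 17.8, 6.88 and 10.1 CPM in KO16, KO18, KO19 and KO20, against 80.5, 129.5, 86.4 and 105 CPM in C10, C11, C13 and C14. Car12, another membrane-bound form, fell by 1.87 (64.1 ± 25.7 CPM in cKO, 234 ± 99.8 CPM in Control, adjusted p = 0.00954). Both carbonic anhydrases were low in every cKO library and passed the threshold in all 21 alternatives. Slc26a6, an anion exchanger of the proximal luminal membrane, fell by 0.89 (4.51 ± 0.216 CPM in cKO, 8.39 ± 1.16 CPM in Control, adjusted p = 0.0161), but the adjusted p was 0.0503 without KO19, 0.0570 without KO20 and 0.126 with library totals alone. Car2, the cytosolic carbonic anhydrase, had the highest mean CPM of the list, 688 ± 257 CPM in cKO and 451 ± 70.5 CPM in Control kidneys (log2 fold change 0.61, adjusted p = 0.210).

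Of the 21 subunits and accessory proteins of the proton ATPase, all tested, 2 were lower, where 6.61% of all genes were, and none higher, with a median log2 fold change of 0.03. The median was -0.23 without KO16 and KO20, where the same 2 were lower, and -0.30 without C11 as well, where 12 were lower and 2 higher. Atp6v1b2, the B2 subunit of its cytosolic part, fell by 1.04 on the log2 scale (196 ± 57.9 CPM in cKO, 404 ± 35.5 CPM in Control, adjusted p = 0.0267). Atp6v0a4, the a4 subunit of its membrane part, fell by 0.69 (163 ± 27.8 CPM in cKO, 263 ± 16.5 CPM in Control, adjusted p = 0.0485). The groups did not overlap for either, but both lost the call on leaving out single libraries: Atp6v1b2 without C10, C11, C13, C14 or KO20 (adjusted p 0.0541 to 0.0838) and Atp6v0a4 without any library other than KO16 (0.0667 to 0.209). Atp6v1a, the catalytic A subunit, had the highest mean CPM over the 8 libraries, though not within cKO, and a log2 fold change of -0.65 (adjusted p = 0.0945). Its groups did not overlap, as for 22.8% of all tested genes. Atp6v1a was called lower in each fit that takes length into account, with either length, and without KO16, KO20 and C11. Those length fits called 2 to 4 of the 21 lower and 0 to 2 higher, where 9.64% to 16.7% of all genes were lower. None of 11 regulators of the pump and exchangers passed, with a median of -0.26, and Wnk1, a kinase that controls distal salt transport, had the highest mean CPM among them (log2 fold change -0.16, adjusted p = 0.871). The log2 fold change of Wnk1 was positive, at 0.09 to 0.48, with library totals alone and without KO16, KO20 or both, and Wnk1 rose by 0.56 (adjusted p = 0.0222) without KO16, KO20 and C11. The median of this list was 0.09 without KO16 and KO20 and 0.32 without C11 as well.

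**Figure D5:**
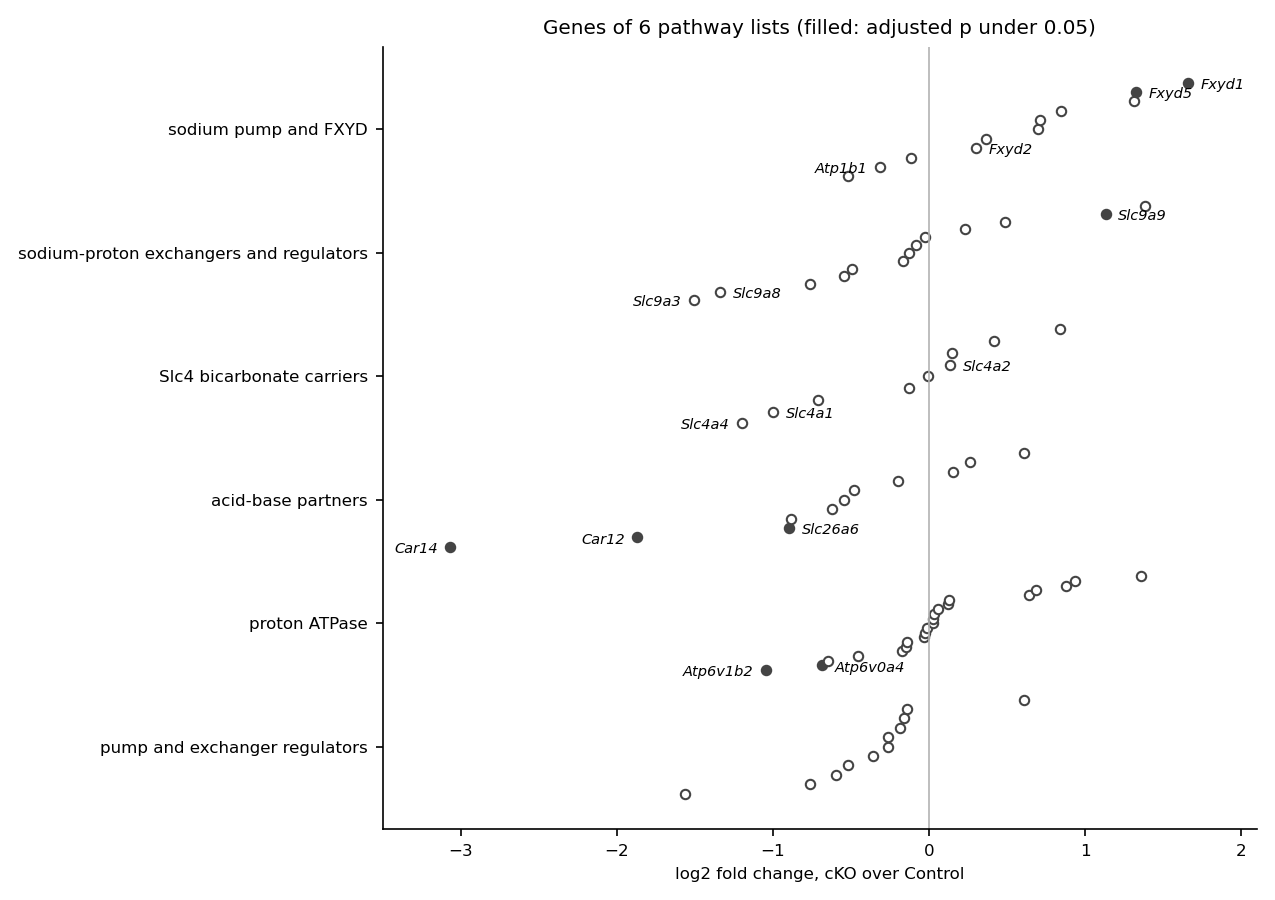
Log2 fold change of cKO over Control for each tested gene of the 6 lists, 1 point per gene, filled where the adjusted p is under 0.05. The 8 filled points are Fxyd1, Fxyd5 and Slc9a9 on the right and Car14, Car12, Atp6v1b2, Slc26a6 and Atp6v0a4 on the left, and the 7 followed genes are open.

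For each gene the nearest patterns were sought among 13788 genes, as the smallest mean absolute difference of centred log2 CPM over the 8 libraries. Slc4a4 lay nearest to Tmem86b (0.11), Tyw3 (0.12) and Dpyd (0.12), and Slc9a8 to Ace (0.14), Lrrc3 (0.16) and Dnajc13 (0.17). Slc9a3 had the most distant neighbours, Fnip2 (0.18), Atp11a (0.21) and Sema4g (0.23). Fxyd2 followed Ndufs8 (0.06), Sdhb (0.07) and Pcbd2 (0.07), and all 3 have longest coding transcripts of 546 to 1142 bp. Slc4a2 lay nearest to Ppp1r9b (0.05), Farp1 (0.06) and Smurf1 (0.08), Slc4a1 to Pcyox1l (0.09), Lrpprc (0.09) and Slc35d1 (0.10), and Atp1b1 to Nln (0.06), Aph1a (0.08) and Babam2 (0.09). Among the 7 genes the closest pair was Slc4a1 and Slc4a4, at 0.21, and Slc9a8 lay 0.33 from Slc4a4 and 0.34 from Slc9a3. The median distance to all genes was 0.74 for Slc4a4 and 0.45 for Atp1b1, so distances are not on 1 scale between genes that vary much and little. The lean of the libraries is part of every such pattern.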

How the data were processed

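Raw read counts per Ensembl gene were deposited by the authors, 1 file per mouse. The submitters' processing notes name cutadapt 1.3, STAR 2.4.0g, HTSeq 0.6.1 and GRCm38. Per the labels' protocols, a stranded mRNA kit was used on 500 ng RNA. An annotation release, strand setting or filter is not given in the sources examined. Lines that name no gene, 39.7% to 56.2% of each file, were left out. GENCODE vM21 gave symbols, positions and lengths, and 46005 identifiers matched (512 did not). Replicates come from mice numbered separately, and p-values weigh the difference between groups against the spread between these libraries.

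The groups were compared with edgeR 4.0.16 (R 4.3.3): TMM factors, filterByExpr (minimum count 10, minimum total 15), the quasi-likelihood F test and Benjamini-Hochberg adjustment over all 15382 tested genes, threshold 0.05. CPM are TMM-scaled, and log2 CPM used a prior count of 2. SE derive from F. DESeq2 1.42.0 and limma-voom (limma 3.58.1) were alternatives, as were other scalings and filters, left-out libraries and 2 treatments of length: a loess trend of each library (span 0.3) as an offset, and each library's length slope as a covariate. The report gives these with the longest coding transcript as length, which was added after seeing the data because the exon union of Fxyd2 far exceeds its mRNAs. KO16, KO20 and C11 were left out for their length lean, known from earlier results. KO18, KO19 and C10 lean as well and were left out only singly. The spread between mice set the precision (common biological coefficient of variation 0.386). No replicate pair looked like 1 library deposited again, with a chi-square per degree of freedom of 7.48 or more. Members, lists and markers were chosen with earlier results of these data known. Most genes were named by rule: the 7 members, list genes past the threshold, the list member of highest mean CPM, the 3 nearest patterns, and Xpr1. Slc4a11 and single cell type markers were named outside the rule, after their values were seen. Slc4a9 and the genes that overlap members were named outside it as well. No set test or p over a list was computed. Ratios, levels per kb and distances carry no test.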

Additional observations from a re-analysis of the deposited data

How the results depend on the processing

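The number of genes called, 2170 with all libraries, was 5103 with the length slope as a covariate (exon union), 3447 with the length trend and 5140 with the slope on the longest coding transcript, and 9175 without KO16, KO20 and C11. It ran from 1106 to 2697 on leaving out 1 library, and fell by more than 1.5 times without C10 (1436), C13 (1106), C14 (1200) or KO20 (1311). Library totals alone gave 2374 higher and 548 lower calls and upper-quartile factors 1460 and 826, against 1154 and 1016 with TMM, with the median of all genes at 0.34 and 0.14 on the log2 scale. Of the 7 members, 0 were called with all libraries, 1 by DESeq2, 1 by limma-voom, 2 with the length trend and 5 with the slope (exon union), 3 and 5 with the longest coding transcript, 4 without KO16, KO20 and C11, and 0 to 1 on leaving out 1 library. Of the pathway list genes, 8 were called with all libraries, 16 by DESeq2, 13 and 28 with the length trend and slope (exon union), 20 and 29 with the longest coding transcript, 42 without KO16, KO20 and C11, and 3 to 8 on leaving out 1 library. Medians of lists and calls of erythroid and limb markers also moved, as given above. Signs turned for Atp1b1 with library totals alone (0.0058) and for Fxyd2 in limma-voom (-0.00231), with the slope (-0.45, or -0.42 with the longest coding transcript), with the trend on the longest coding transcript (-0.33), without KO16 and KO20 (-0.97) and without C11 as well (-1.19). On leaving out 1 library Fxyd2 ran from -0.49 to 0.55, Slc4a2 from -0.11 to 0.59, Slc9a3r1 from -0.26 to 0.074 and Wnk1 from -0.57 to 0.12. Slc9a3r1 was 0.020 with upper-quartile factors and 0.17 with library totals, and Wnk1 0.25 with library totals, 0.48 without KO16 and KO20 and 0.56 without C11 as well. Over the 21 alternatives the call held in 21 for Car12, Car14 and Xpr1, 19 for Slc9a9, 18 for Slc26a6, 15 for Atp6v1b2, 13 for Fxyd1, 12 for Fxyd5 and 8 for Atp6v0a4. The cause of these changes was not tested, beyond fewer samples where libraries were left out. No paired analysis was possible because the labels give the groups no shared replicate numbers.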
